A study of Mus musculus with 48 samples.

Results

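NELF events outside marked promoters are the binding events of the negative elongation factor NELF in wildtype mouse embryonic stem cells that have no wildtype H3K4me3 or H3K27ac domain within 1 kb and no ZBTB11 or ZFP131 event within 500 bp. The rule was applied to the authors' event and domain lists and kept 8348 of 60923 wildtype events (13.7%), called unmarked events here. The other 52575 events comprised 47463 beside H3K4me3, 4606 beside H3K27ac without H3K4me3, and 506 with neither mark but with ZBTB11 or ZFP131. The members were thus selected on wildtype NELF, both marks and both factors, so differences in those measures are not findings. An event is a point of binding called from pooled libraries, a domain is a stretch of enriched reads, and "listed" means that a list holds an event within 500 bp of the wildtype point.

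NELF holds RNA polymerase II shortly after it has started transcription, together with DSIF, and leaves when the kinase P-TEFb releases the polymerase into the gene. Its sites are therefore known mainly from the starts of active genes, where H3K4me3 marks promoters and H3K27ac marks active promoters and enhancers. Polymerase phosphorylated at serine 5 of its C-terminal repeat is the initiated and paused form. NELF also acts at snRNA genes, where it takes part in ending transcription.

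The series measured 9 targets by ChIP-seq in 48 samples, 24 groups of 2 libraries. NELF and H3K4me3 were measured in Zbtb11KO cells (iZbtb11-HA Zbtb11KO), Zfp131KO cells (iZfp131-HA Zfp131KO), double knockout cells (iZbtb11-HA iZfp131-V5 Zbtb11KO Zfp131KO) and wildtype cells (iCre), H3K27ac, H3K27me3 and CHD4 in both single knockouts and wildtype, SIN3A in Zbtb11KO and wildtype as used here, and polymerase and SETD1A in wildtype. All lines derive from Ainv15 cells and were kept 3 days without doxycycline, so without the tagged copy, in medium with LIF and without the kinase inhibitors, whereas HA was measured in the knockout lines with doxycycline and the inhibitors present, a culture other than that of NELF. Each genotype is 1 named line, so an effect of a knockout and a difference between lines cannot be told apart.

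The NELF lists held 18009 events from 51.1 M reads in Zbtb11KO, 20265 from 61.5 M in Zfp131KO and 9946 from 71.6 M in double knockout cells, against 60923 from 60.5 M in wildtype. The wildtype header names 1 signal replicate although the labels give 2 libraries. In the double knockout the libraries had 2.7% and 8.0% of their reads in events. The lowest listed event had 42 reads in Zbtb11KO, 49 in Zfp131KO and 57.1 in double knockout cells, against 47 in wildtype. Of the embryonic stem cell markers with an annotated start, 7 of 7 had a wildtype H3K4me3 domain within 1 kb. The same held for 2 of 3 trophectoderm and 1 of 2 fibroblast markers, and no primitive endoderm marker had a start in the table.

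Few unmarked events lay in a promoter. Within 500 bp of a RefSeq start there were 287, of which 103 fell inside the window from 250 bases before to 50 bases after it. The windows printed are those of Gtf3c6 and Gm29948, which had the most wildtype reads and stayed listed in every knockout, of Gm35105, where NELF was called higher in Zbtb11KO, and of Gm30734 and Fkbp2, which no knockout listed. They come from RefSeq (GRCm38.p6, the assembly mm10), run 5′ to 3′ on the gene's strand, and carry in capitals the 21 bases centred on the wildtype NELF event.
Gtf3c6: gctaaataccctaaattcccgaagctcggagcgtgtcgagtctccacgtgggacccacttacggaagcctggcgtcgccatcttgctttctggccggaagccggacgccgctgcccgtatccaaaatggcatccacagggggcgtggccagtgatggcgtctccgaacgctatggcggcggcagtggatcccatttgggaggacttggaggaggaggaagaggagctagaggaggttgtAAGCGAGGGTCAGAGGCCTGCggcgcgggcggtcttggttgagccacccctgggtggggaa
Gm29948: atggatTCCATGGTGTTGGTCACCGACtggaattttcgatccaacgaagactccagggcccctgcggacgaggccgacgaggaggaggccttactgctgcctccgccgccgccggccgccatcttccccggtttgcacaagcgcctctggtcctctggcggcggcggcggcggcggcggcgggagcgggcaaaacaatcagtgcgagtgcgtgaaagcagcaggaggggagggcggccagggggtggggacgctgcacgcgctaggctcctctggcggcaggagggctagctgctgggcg
Gm35105: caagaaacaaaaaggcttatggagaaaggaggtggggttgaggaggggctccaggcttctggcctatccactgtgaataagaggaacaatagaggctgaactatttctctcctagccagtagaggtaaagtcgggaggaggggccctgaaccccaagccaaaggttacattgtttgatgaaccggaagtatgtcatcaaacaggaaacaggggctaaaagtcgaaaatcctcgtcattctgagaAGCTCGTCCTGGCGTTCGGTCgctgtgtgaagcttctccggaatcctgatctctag
Gm30734: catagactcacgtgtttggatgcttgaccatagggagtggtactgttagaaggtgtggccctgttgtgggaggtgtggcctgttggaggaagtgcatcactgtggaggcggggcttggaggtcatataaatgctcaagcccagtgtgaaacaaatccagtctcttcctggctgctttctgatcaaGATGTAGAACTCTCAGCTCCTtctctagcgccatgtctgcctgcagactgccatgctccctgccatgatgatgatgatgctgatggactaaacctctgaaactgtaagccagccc
Fkbp2: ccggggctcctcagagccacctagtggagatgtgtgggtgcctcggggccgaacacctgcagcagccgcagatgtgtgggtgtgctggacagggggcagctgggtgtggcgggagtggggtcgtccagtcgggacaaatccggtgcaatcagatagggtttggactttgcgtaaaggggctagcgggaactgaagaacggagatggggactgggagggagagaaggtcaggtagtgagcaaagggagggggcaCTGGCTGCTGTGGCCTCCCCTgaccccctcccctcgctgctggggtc

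The Gtf3c6 window is chr10:40257513-40257812 on the minus strand, and the event lies 1 base before the start of this gene for a subunit of the RNA polymerase III factor TFIIIC. The Gm29948 window is chr3:95818630-95818929 on the plus strand, inside Rprd2, which encodes a protein that binds the polymerase's C-terminal repeat. The Gm35105 window is chrX:17251316-17251615 on the plus strand, inside Efhc2. The Gm30734 window is chr4:152583586-152583885 and the Fkbp2 window chr19:6979343-6979642, both on the minus strand. The windows of Gtf3c6 and Gm29948 held 24 and 31 CG dinucleotides and GGGCGG on either strand. The Gm35105, Fkbp2 and Gm30734 windows held 9, 12 and 3 CG dinucleotides and no GGGCGG, and among the printed windows TATAAA stood only in that of Gm30734.

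Windows that held an unmarked event were less rich in CG than those with an H3K4me3-marked event. The 108 windows with an unmarked event had a median of 7 CG dinucleotides, against 24 in 5688 windows with a marked event and 7 in all 32851 windows. GGGCGG, searched on both strands, occurred in 25.0% of the windows with an unmarked event, against 65.6% of those with a marked event and 35.7% of all. TATAAA occurred in 8.33%, 4.87% and 13.6% of the same sets and CCAAT in 36.1%, 30.2% and 37.4%. These are matches of letters, not binding sites.

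Most unmarked events lay inside genes but away from starts. Of the 8348, 5200 lay inside a RefSeq gene (62.3%, Wilson 95% interval 61.2 to 63.3, counting error only), against 39409 of the 52575 other events. Within 500 bp of a start lay 3.54% of the unmarked events and 38.3% of the others on chromosomes with annotated starts, which leaves out 234 unmarked events, most of them on chromosome 18. Farther than 5 kb from any gene lay 1801 unmarked events (21.6%), against 8.40% of the others. Other events without H3K4me3 lay nearer to these shares. Of the events with H3K27ac and no H3K4me3, 59.9% lay inside a gene, 3.12% within 500 bp of a start and 22.0% farther than 5 kb from a gene, and of those with neither mark but with ZBTB11 or ZFP131 it was 62.1%, 6.10% and 22.3%. The nearest start was a median of 13827 bp away from an unmarked event and 1250 bp away from another event.

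**Figure D1:**
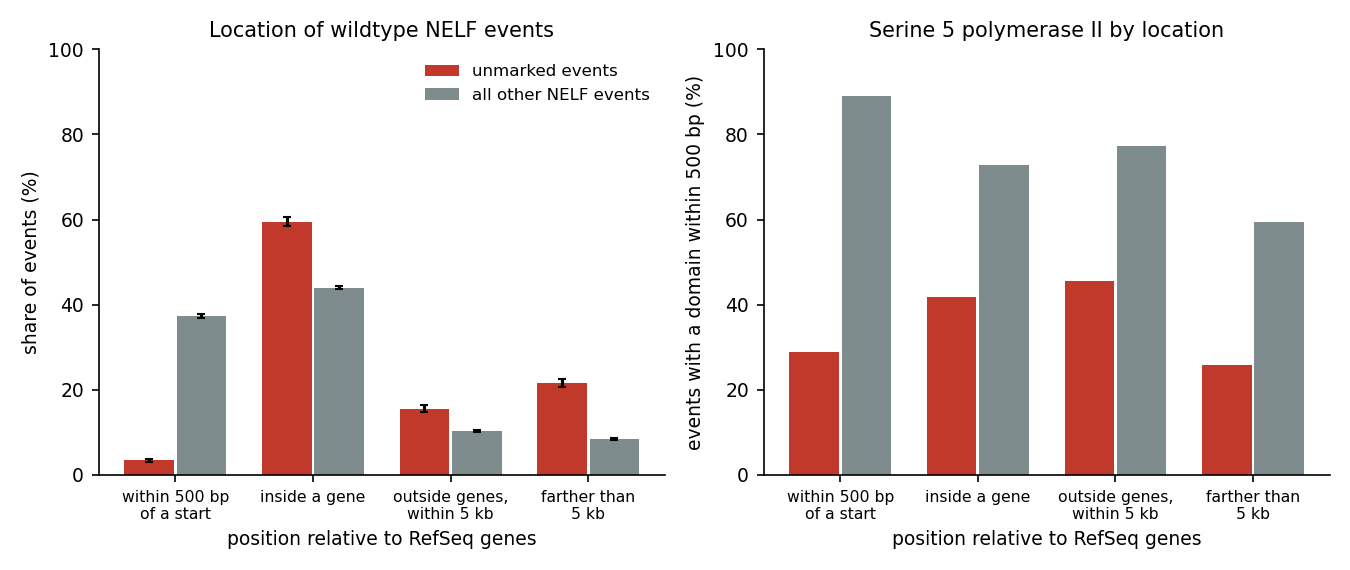
Left, share of wildtype NELF events (%, Wilson 95% intervals) at 4 positions relative to RefSeq genes, where "inside a gene" means farther than 500 bp from a start; right, share of the events at each position with a serine 5 polymerase domain within 500 bp. Unmarked events are red and all other events grey; 59.5% of the unmarked events lie inside a gene away from a start, and at each position fewer of them have a polymerase domain.

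Inside genes the unmarked events were spread along the body. Of 3441 in protein-coding genes of known strand, 8.78% lay in the first 10% of the gene and 14.7% in the last, with between 8.11% and 11.2% in each 10% between. Of the other events 55.1% lay in the first 10%. Of 1297 unmarked events outside genes but within 5 kb of one, 873 lay beside a gene of known strand, and 561 of these (64.3%) lay beyond its 3′ end. The larger shares thus lay in the last 10% of genes and beyond the 3′ end. The rule removed events near marked starts, so a lean away from the 5′ end is favoured by the selection. How much of it the selection gives was not tested.

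The unmarked events were scattered singly over many genes. Joined where neighbours lay within 1 kb they formed 7799 sites, of which 7310 held 1 event, and the largest held 8. The nearest other NELF event lay a median of 4359 bp away, against 473 bp for the other events. They fell inside 2709 protein-coding genes, and 3907 of 21900 (17.8%) had an unmarked event inside or within 5 kb, of which 91.7% also had another NELF event. Gse1, which encodes a partner of a histone deacetylase complex, held the most, 23 over 353 kb, followed by the synaptic adhesion gene Igsf21 with 17 over 220 kb. Srrm2, a gene for a splicing protein, held 11 over 34.2 kb, each within 500 bp of a polymerase domain, and 11 of 11 in Tcf7l1, the gene for a repressor in the Wnt pathway, had one too. In Gse1 it was 5 of 23. No event in Gse1, Igsf21, Srrm2 or Tcf7l1 was listed in a knockout, as was so for 95.9% of all unmarked events.

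Chromosome X carried few. It held 33 unmarked events, 3.35% of its NELF events, against 11.1% to 16.4% on the autosomes. Of those 33, Zbtb11KO listed 7 (21.2%, interval 10.7 to 37.8), Zfp131KO 4 (12.1%, 4.82 to 27.3) and the double knockout 1 (3.03%, 0.537 to 15.3), where 2.32%, 2.61% and 0.862% of all unmarked events were listed.

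Among the gene lists, which were drawn up with earlier results of these data known, Esrrb had the most unmarked events. The pluripotency list of 24 genes had 17 unmarked events at 5 genes, Esrrb, Nr5a2, Sall4, Tdgf1 and Tfcp2l1, and 217 other events, and none of the 17 was listed in a knockout, which is near the share of all unmarked events in no list, 95.9%. Esrrb, a nuclear receptor gene of the naive state, alone held 9 in its body. The primitive endoderm list of 16 genes had 8 at 7 genes, the neural list of 17 genes 9 at 8 genes, and the Hox list of 36 genes 12 at 9 genes. The trophectoderm list had 3, the p53 target list 5, the immediate early and germline lists 2 each, the pausing factor list 3, and the fibroblast and two-cell-like lists 0. Of these, 2 of 8 primitive endoderm, 1 of 9 neural, 3 of 12 Hox and 1 of 5 p53 target events were listed in a knockout. Of all unmarked events, 2.92% were in 1 knockout list, 0.755% in 2 and 0.455% in all 3. Differences of these small counts from those shares were not tested. The share of genes with an unmarked event was 17.8% over all protein-coding genes.

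Values at single list genes were low. The event with the most reads in Esrrb, at chr12:86456517, had 88.6 wildtype reads, lay inside a polymerase domain and was listed in no knockout. One 2447 bp from Tfcp2l1, at chr1:118687615, had 77.4, and one in Sall4, at chr2:168755993, had 69.7. In Cdkn1a, the p53 target that encodes the cell cycle inhibitor p21, the event at chr17:29098735 had 59.5 reads in Zfp131KO and 75.1 in wildtype. In Gata4, a primitive endoderm regulator, the event at chr14:63268859 had 72.6 reads in Zfp131KO and 72.3 in wildtype, and one 1236 bp from Pdgfra, at chr5:75150086, had 54.8 in Zbtb11KO and 55.2 in wildtype. The last pair had H3K4me3 within 500 bp in all 3 knockouts, the nearest wildtype domain being 12464 bp away at Gata4 and 1229 bp away at Pdgfra.

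The unmarked events were weak in wildtype, which is a description, since wildtype NELF chose them. They had a median of 60.9 reads (quartiles 53.2 and 73.2, highest 633.3), against 123.1 for the other events. Only 550 (6.59%) had 100 reads or more, against 61.3% of the others, and together they held 4.67% of all reads in events. The median log2 fold over control was 2.65 for the unmarked events and 3.15 for the others. Beside the 1 kb limit, the nearest events inside the rule lay 1002 bp from a domain, in Gm40689 at chr10:70832497, in Etl4 at chr2:20207899 and in Prrc2b at chr2:32179575, with 62.4, 75.9 and 64.4 wildtype reads. Just outside it, events in Zbtb2 at chr10:4370149 and in Map3k12 at chr15:102504406 each lay 999 bp from a domain, with 60.4 and 56.2 reads.

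**Figure D2:**
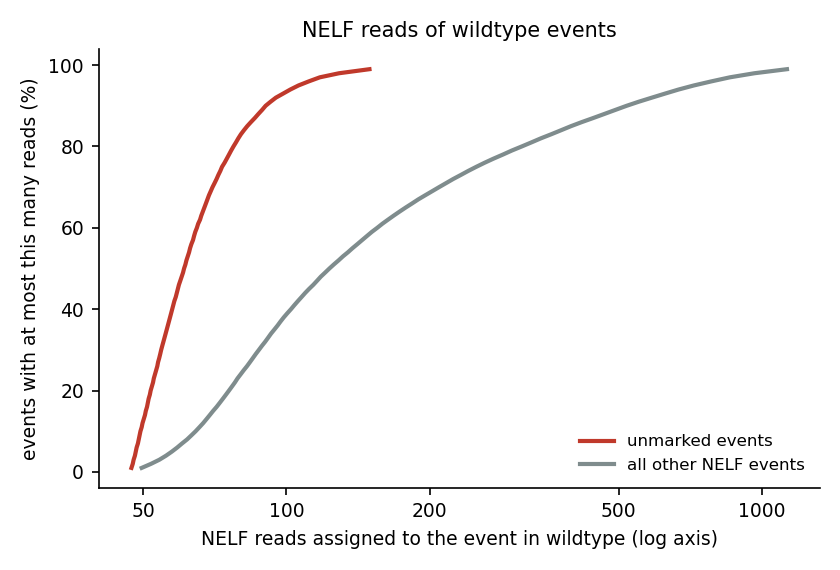
Cumulative share of events (%) by NELF reads assigned to the event in wildtype (log axis), for unmarked events in red and all other events in grey, drawn from the 1st to the 99th percentile. The medians are 60.9 and 123.1 reads, and both curves begin near the lowest listed value of 47 reads.

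The strongest unmarked events lay at a start of Gtf3c6 and in Tarbp2, 514 bp from its start. A wildtype H3K27ac domain lay 1094 bp from the Gtf3c6 event and 1029 bp from the Tarbp2 event, just beyond the limit of the rule. Both had wildtype SIN3A and SETD1A events within 500 bp. The Gtf3c6 event at chr10:40257563 had 5.67 rpm (reads per 1 M sequenced) in Zbtb11KO, 5.56 in Zfp131KO and 3.01 in double knockout cells, against 10.5 in wildtype. The event at chr15:102517678 in Tarbp2, which encodes a partner of Dicer, had 4.46 in Zbtb11KO and 3.76 in Zfp131KO, against 7.28 in wildtype, and was not listed in the double knockout. Both had fewer reads for the depth in each knockout list that held them, and no error can be given since a list is 1 pooled value. Of the 10 unmarked events with the most reads, 3 were listed in all 3 knockouts and 3 in none. The 3 in none lay at chr11:116705068, 9286 bp from St6galnac2, at chr4:138647985 in the noncoding gene Gm32662, and at chr2:30335330 in Nup188, the gene for a nuclear pore protein, with 6.04, 5.61 and 4.83 rpm in wildtype.

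Serine 5 polymerase, which the rule did not use directly, was found at fewer unmarked events than other events as a whole. The rule removed events beside H3K4me3 or H3K27ac, where polymerase was frequent, so a lower share is favoured by the selection. How much of the difference the selection gives was not tested. A wildtype domain lay within 500 bp of 3218 unmarked events (38.5%, interval 37.5 to 39.6), against 78.2% of the others. The event lay inside the domain for 18.4% and 56.1%. The others were not alike: a domain lay within 500 bp of 79.9% of those with H3K4me3 and 65.2% of those with H3K27ac alone, but of 33.6% of the 506 with neither mark but with ZBTB11 or ZFP131 (interval 29.6 to 37.8), where 15.4% lay inside it. The domains at unmarked events were short, with a median of 129 bp and 33 reads, against 423.5 bp and 124 reads for those at other events and 63 bp and 18 reads over all 189490 domains. The median distance to the nearest domain was 2115 bp for unmarked events.

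At low reads the difference in polymerase depended on the mark. With under 60 wildtype reads, 31.7% of 3953 unmarked and 32.2% of 3557 other events had a domain, but the others comprised 26.8% of 2504 with H3K4me3 and 48.6% of 907 with H3K27ac alone. From 60 to 80 reads it was 38.7% and 51.8%, from 80 to 100 reads 48.8% and 68.6%, and from 100 to 150 reads 67.5% and 82.6%. These classes were chosen after the data were seen, and depth in an event also differs between the groups within a class. By location, the polymerase share of unmarked events was 28.9% within 500 bp of a start, 41.9% inside genes, 45.5% outside genes within 5 kb and 25.8% farther away. At the 287 events beside a start it was thus lower than in gene bodies, whereas 89.0% of the other events beside a start had a domain.

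The chromatin regulators were also less frequent than at the other events as a whole. Here too the removal of events beside H3K4me3 or H3K27ac favours lower shares, and its part was not tested. A wildtype SIN3A event, the scaffold of a histone deacetylase complex, lay within 500 bp of 32.8% of the unmarked and 87.1% of the other events. SETD1A, an H3K4 methyltransferase, lay at 6.68% and 50.3%, CHD4, a remodeller of the NuRD complex, at 3.57% and 13.1%, and a domain of the Polycomb mark H3K27me3 at 6.21% and 23.1%. Other events without H3K4me3 differed. With H3K27ac alone, SIN3A lay at 56.0%, SETD1A at 12.7%, CHD4 at 9.16% and H3K27me3 at only 0.716%. With neither mark but with ZBTB11 or ZFP131, it was 45.1%, 15.8%, 8.70% and 10.7%. SIN3A was listed in Zbtb11KO at 1267 of the 2740 unmarked events that had it in wildtype (46.2%), against 87.6% of such other events. Among unmarked events with H3K27me3, 12.9% had polymerase, against 40.2% of those without it.

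The authors' deposited tables gave changes in those targets at few unmarked events. For CHD4 in Zbtb11KO, 673 unmarked events lay within 500 bp of a region of the authors' deposited table, of which 146 (21.7%) were called higher and 4 lower, where 9.38% and 2.82% of all 10326 regions were. For CHD4 in Zfp131KO it was 167 higher (15.4%) and 37 lower of 1082, against 8.05% and 8.08% of all regions in the authors' deposited table. For H3K27me3 in Zfp131KO, 204 of 983 (20.8%) were called higher and 67 lower, against 11.7% and 6.18% of all regions in the authors' deposited table, and in Zbtb11KO 66 of 778 (8.48%) were higher and 35 lower, against 9.09% and 4.83%. For SIN3A in Zbtb11KO, 112 of 2504 were lower (4.47%) and 91 higher (3.63%), against 3.23% and 3.44% in the authors' deposited table. Called means that DESeq2, run by the authors over all regions, gave an adjusted p below 0.05. The labels do not say that libraries came from separate cultures, so these p-values may reflect technical spread. Several events can share a region.

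Few unmarked events stayed listed in a knockout, and how few depended on the setting. Zbtb11KO listed 194 of 8348 (2.32%, interval 2.02 to 2.67), Zfp131KO 218 (2.61%, 2.29 to 2.98) and the double knockout 72 (0.862%, 0.685 to 1.08), where 40.7%, 43.4% and 26.1% of all wildtype events were. Among the 478 unmarked events in the more significant part of the wildtype list, at or below its median log2 p-value, it was 16.3%, 13.2% and 3.97%, and among those with no domain of any genotype 1.41%, 1.01% and 0.423%. Of the other events 46.8%, 49.8% and 30.1% were listed. No knockout listed 8003 unmarked events (95.9%), and 38 (0.455%) were in all 3 lists, against 45.3% and 28.7% of the other events. The 194, 218 and 72 members rested on 181, 200 and 65 distinct knockout events, since close neighbours can share 1. The other events listed, 24588, 26205 and 15801, outnumbered the 18009, 20265 and 9946 events of those lists. Sharing was thus more common among the other events, and its part in the difference was not tested.

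The lists shared only part of what stayed. Of the 72 unmarked events in the double knockout list, 45 (62.5%) were also in the Zbtb11KO list and 50 (69.4%) in the Zfp131KO list. Of the 194 in Zbtb11KO, 82 (42.3%) were also in Zfp131KO, which is 37.6% of the 218 there. Zbtb11KO alone listed 105 and Zfp131KO alone 124. All of these lists are set against the same wildtype list.

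**Figure D3:**
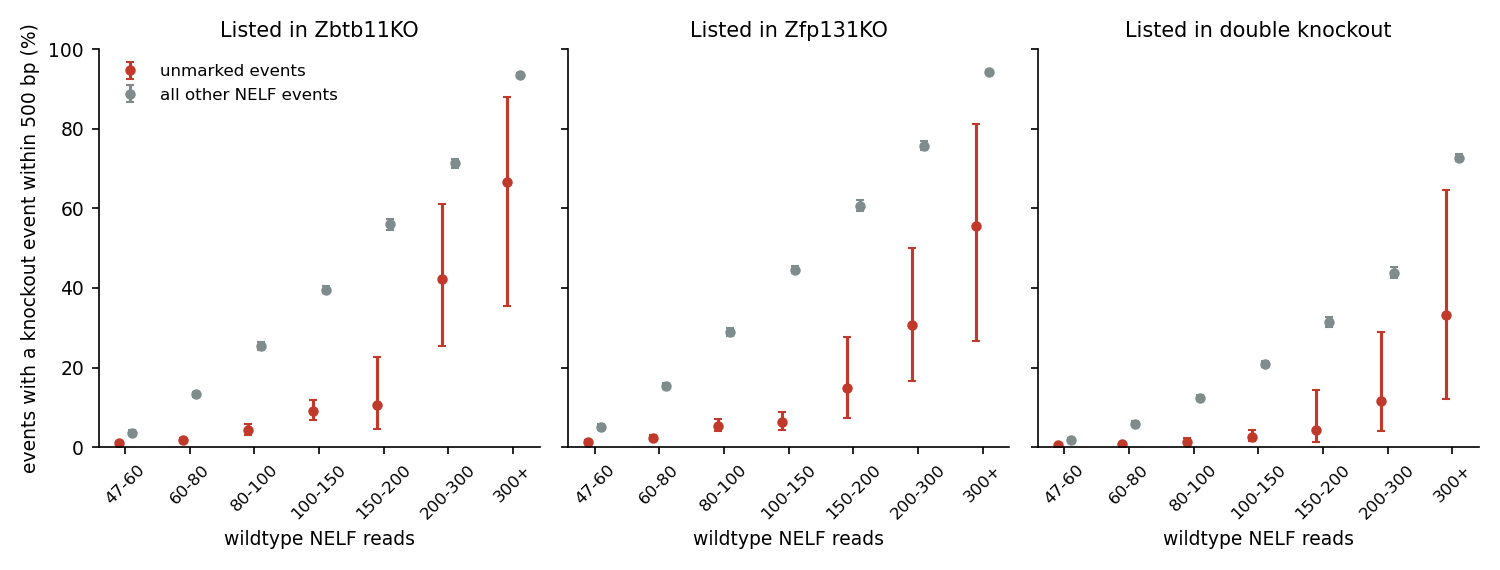
Share of wildtype NELF events (%, Wilson 95% intervals) with an event within 500 bp in the Zbtb11KO, Zfp131KO and double knockout lists, by wildtype NELF reads, for unmarked events in red and all other events in grey. In each class and list the unmarked share is below the other, for example 8.97% and 39.6% in Zbtb11KO from 100 to 150 reads. Neighbouring wildtype events can share a knockout event.

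The difference from the other events held at like reads, though close neighbours can share a knockout event within these classes too. From 60 to 80 wildtype reads Zbtb11KO listed 1.79% of 2953 unmarked and 13.3% of 8972 other events. From 100 to 150 reads it listed 8.97% of 468 and 39.6% of 10488, Zfp131KO 6.20% and 44.6%, and the double knockout 2.56% and 20.9%. With 300 reads or more, 6 of 9 unmarked events stayed listed in Zbtb11KO, against 93.5% of 10954. Events with H3K27ac and no H3K4me3 were closer to the unmarked ones, at 7.25% of 745 in Zbtb11KO, 12.8% in Zfp131KO and 2.82% in double knockout cells from 100 to 150 reads.

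Scaled for depth alone, most of them would lie above the lowest listed value. At the rpm of wildtype, 88.3% of the unmarked events would reach the lowest listed reads in Zbtb11KO, 95.3% in Zfp131KO and 94.9% in double knockout cells. At the median ratio of the other events that stayed listed it would be 35.7%, 58.7% and 9.63%. That ratio was taken only from events that stayed listed, so high ratios are favoured in it. For Zbtb11KO its log2 was -0.43. The authors' deposited table, whose scaling is not given, had a median log2 fold change of -1.06 at all other events. The lowest listed value is no fixed limit of the caller, and how often such events would recur in another wildtype list was not tested, since no value per library was available.

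Among the unmarked events, those at starts, with polymerase or with more reads stayed listed more often. Beside a start Zbtb11KO listed 27 of 287 (9.41%), against 2.07% of the rest, Zfp131KO 7.67% against 2.43%, and the double knockout 3.48% against 0.769%. With a polymerase domain it was 3.42% in Zbtb11KO, 3.54% in Zfp131KO and 1.24% in double knockout cells, against 1.64%, 2.03% and 0.624% without one. With at least 100 reads it was 11.6%, 8.91% and 3.64%. With SIN3A it was 2.19% in Zbtb11KO, 2.37% in Zfp131KO and 0.438% in double knockout cells (interval 0.251 to 0.764), against 2.39%, 2.73% and 1.07% (0.832 to 1.37) without it, so only the intervals for the double knockout did not overlap. Median wildtype reads were 65.8 beside a start and 64.4 with polymerase, against 60.8 and 59.1 without, and their part in these shares was not tested.

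Events next to snRNA genes stayed listed more often than those in any location class or beside the other small RNA gene types. Within 2 kb of a gene that RefSeq types as snRNA, a type that here includes U3 genes, lay 23 unmarked events at 20 genes, and 14 stayed listed in Zbtb11KO (60.9%, interval 40.8 to 77.8), 15 in Zfp131KO (65.2%) and 14 in double knockout cells (60.9%). They make up 0.276% of the unmarked events and 13 of the 38 in all 3 lists. The 14, 15 and 14 rested on 12, 13 and 12 distinct knockout events. Their median of 97.4 wildtype reads was above that of all unmarked events. Of 190 other NELF events near snRNA genes, 62.1% stayed in Zbtb11KO, 65.3% in Zfp131KO and 47.9% in double knockout cells.

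The snRNA events lay beside, not on, these genes, and 16 of the 23 had a wildtype H3K4me3 or H3K27ac domain within 2 kb, just beyond the limit of the rule. Polymerase lay at 16 of 23 (69.6%). In the U3B cluster within the germ cell gene Tex14, the event at chr11:87449396, 555 bp from Rnu3b3, had 3.83 rpm in Zbtb11KO, 6.39 in Zfp131KO and 2.68 in double knockout cells, against 5.06 in wildtype. It lay inside a polymerase domain and 1031 bp from H3K4me3. Another unmarked event, at chr11:87449806 with 1.98 rpm in wildtype, took the same knockout values. These values are thus set against only part of the wildtype reads there, and a rise or fall cannot be read from them. The U3B genes are a multicopy family, so reads there may belong to another copy. The event at chr9:65200747, 979 bp from Rnu5g, a gene for the U5 RNA of the spliceosome, had 3.03 in Zbtb11KO, 4.52 in Zfp131KO and 2.33 in double knockout cells, against 1.67 in wildtype. It had more reads for the depth in every knockout list, but the authors' deposited table gave a log2 fold change of -0.036 for Zbtb11KO (SE 0.43, DESeq2 adjusted p = 0.939) and did not call it. The strongest unmarked event, at Gtf3c6, lies 905 bp from a U3 gene.

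Near other small RNA genes few events stayed, and the counts were too small to set them apart from all unmarked events. Of all unmarked events, 2.32% were listed in Zbtb11KO, 2.61% in Zfp131KO and 0.862% in double knockout cells. Of 26 unmarked events within 2 kb of a snoRNA gene, 2 (7.69%, interval 2.14 to 24.1) were listed in Zbtb11KO. In Zfp131KO and the double knockout it was 0, where 0 of 26 allows a share of up to 11.5%. Of 64 near miRNA genes, 2 were listed in Zbtb11KO, 1 in Zfp131KO and 0 in double knockout cells. Of 9 near tRNA genes 1 was listed, in Zfp131KO, at n-TYgta9 (chr5:30887527), with 2.74 rpm there and 5.48 in wildtype. The other NELF events near snoRNA genes stayed in 64.8%, 63.7% and 54.9% of 344 cases in Zbtb11KO, Zfp131KO and the double knockout.

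**Figure D4:**
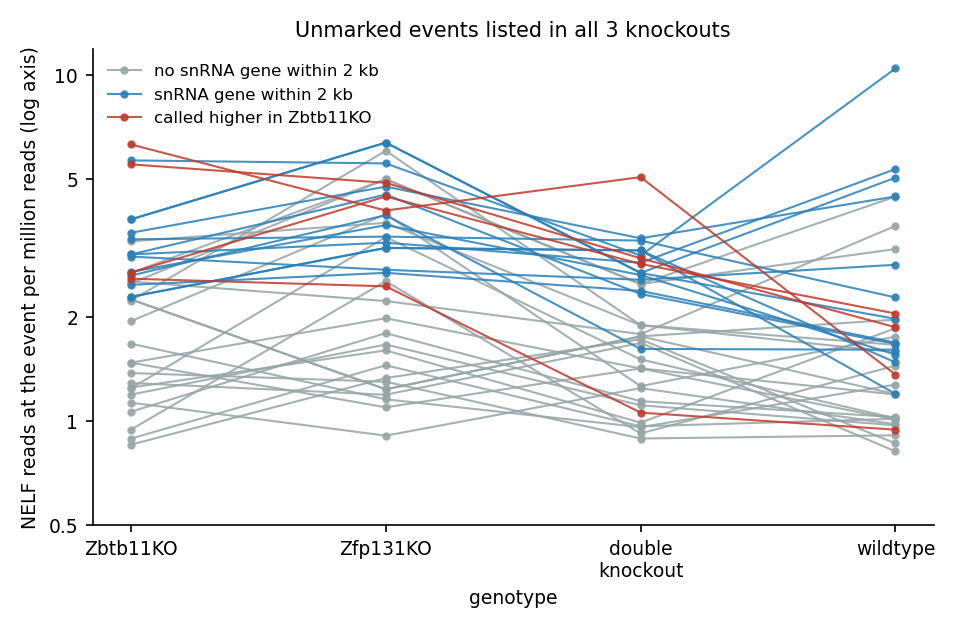
NELF rpm, reads per 1 M sequenced (log axis), at the 38 unmarked events listed in all 3 knockouts, by genotype, 1 line per event, with those within 2 kb of an snRNA gene in blue and those called higher in Zbtb11KO in red. Neighbouring events can share a knockout value; the blue lines end between 1.20 and 10.5 in wildtype, and the 4 red lines are above wildtype in each knockout.

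The 25 events in all 3 lists away from snRNA genes differed in their surroundings. A knockout H3K4me3 domain lay within 500 bp of 20 of them, in all 3 knockouts at 11, and only 2 had a wildtype mark within 2 kb. Of all unmarked events, 15.8% had such a domain in any knockout, 1.81% in all 3, and 19.0% had a wildtype mark within 2 kb. The median of the 25 was 1.68 rpm in Zbtb11KO, 1.98 in Zfp131KO and 1.51 in double knockout cells, and their wildtype range was 0.818 to 4.46. Of the 13 by snRNA genes none had a knockout H3K4me3 domain within 500 bp, and 13 had a wildtype mark within 2 kb. Since each list has 1 lowest value for all events, an event of low wildtype reads is listed only at a higher ratio of knockout to wildtype, and high ratios are favoured in such a set.

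H3K4me3 and H3K27ac appeared in the knockout lists at part of the unmarked events, where the rule allows only gains. A domain within 500 bp was listed for H3K4me3 at 5.03% in Zbtb11KO, 5.46% in Zfp131KO and 12.9% in double knockout cells, whose list is the longest with 59542 domains against 48733 in wildtype. For H3K27ac it was 11.9% in Zbtb11KO and 13.0% in Zfp131KO. Other events without wildtype H3K4me3 had higher shares. With H3K27ac alone, H3K4me3 was listed at 12.5% in Zbtb11KO, 15.5% in Zfp131KO and 33.6% in double knockout cells. With neither mark but with ZBTB11 or ZFP131 it was 13.6%, 16.4% and 31.6%, and H3K27ac was listed at 16.0% in Zbtb11KO and 17.6% in Zfp131KO. At 151 unmarked events (1.81%) H3K4me3 was listed in all 3 knockouts, and of these 31 (20.5%) kept NELF in Zbtb11KO, 44 (29.1%) in Zfp131KO, and 14 (9.27%) in double knockout cells, where 2.32%, 2.61% and 0.862% of all unmarked events were listed. For H3K27ac in both single knockouts, at 564 events, it was 4.79%, 5.85% and 1.77%.

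In the authors' deposited NELF table for Zbtb11KO, 2969 of the 8348 unmarked events (35.6%) lay in a region called lower and 4 in a region called higher, where 49.0% and 0.159% of all 70551 regions were. The median log2 fold change in the authors' deposited table was -1.35 at unmarked events (quartiles -1.84 and -0.90), -1.06 at the other events and -1.04 over all regions. Centred on the median of all regions, 34 unmarked events (0.407%) would be called lower and 6 (0.0719%) higher, where 0.259% and 0.302% of all regions would be, so few events of either kind stand apart from the table's own median. Wildtype NELF chose the events, so falls are favoured, and the standard error in the authors' deposited table is wider at unmarked events, with a median of 0.70 against 0.48 at the others. At 60 to 80 wildtype reads 39.4% of the unmarked and 30.3% of the other events were called lower in the authors' deposited table, with median log2 fold changes of -1.39 and -1.11, and at 100 to 150 reads 67.3% and 53.5%, with medians of -1.57 and -1.13.

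**Figure D5:**
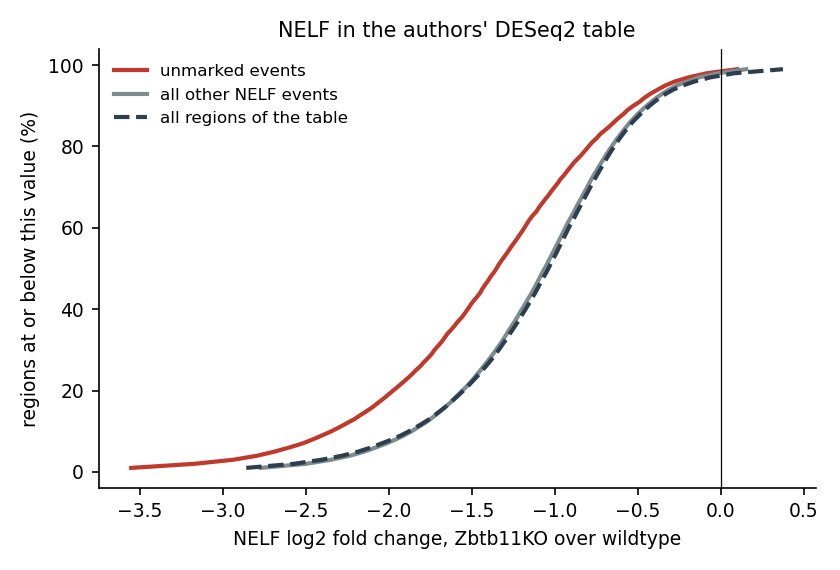
Cumulative share (%) of the NELF log2 fold change, Zbtb11KO over wildtype, in the authors' deposited table, for unmarked events in red, other wildtype events in grey and all regions dashed, from the 1st to the 99th percentile. The medians are -1.35, -1.06 and -1.04, and the unmarked curve lies to the left over most of its range.

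Among unmarked events of at least median signal, the largest falls lay at Padi3 and Gm32662. At Padi3, which encodes a peptidylarginine deiminase, the event at chr4:140810548, 100 bp from a start, had 3.95 rpm in wildtype and was listed in no knockout, and the authors' deposited table gave -3.13 (SE 0.58, DESeq2 adjusted p = 9.5e-06). For the event in Gm32662 the authors' deposited table gave -3.02 (SE 0.42, DESeq2 adjusted p = 1.5e-09). The next were -2.77 at chr11:100534466, 3692 bp from the tRNA gene n-TSgga1, -2.31 at chr10:128187188, 3334 bp from the pseudogene Gm4556, and -2.09 at chr1:119348493, 27849 bp from Gm33388, in the authors' deposited table. At Gtf3c6 it was -0.95 (SE 0.40, DESeq2 adjusted p = 0.0381) in the authors' deposited table, and at the 23 snRNA neighbours the median was -0.71. Of these 23, 7 (30.4%) were called lower in the authors' deposited table, where 35.6% of all unmarked events and 49.0% of all regions were.

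The 4 events called higher each had a knockout H3K4me3 domain within 500 bp and a listed NELF event in all 3 knockouts. Of all unmarked events, 15.8% had such a domain in any knockout, 1.81% in all 3, and 0.455% were in all 3 NELF lists. At Gm35105 (chrX:17251570) NELF had 6.31 rpm in Zbtb11KO, 4.06 in Zfp131KO and 5.07 in double knockout cells, against 1.36 in wildtype, and the authors' deposited table gave 1.93 (SE 0.46, DESeq2 adjusted p = 0.000485). At chr11:35078623, 42833 bp from the guidance gene Slit3, it had 5.53, 4.89 and 2.96 in the same knockouts, against 1.87 in wildtype, with 1.66 (SE 0.41, DESeq2 adjusted p = 0.000736) in the authors' deposited table. In Trappc9, a gene of vesicle transport, at chr15:72810160 it had 2.69, 4.46 and 2.85, against 2.05 in wildtype, with 1.01 (SE 0.41, DESeq2 adjusted p = 0.0355) in the authors' deposited table. In the cilia gene Cfap44 at chr16:44441913 it had 2.58, 2.45 and 1.06, against 0.945 in wildtype, with 1.46 (SE 0.56, DESeq2 adjusted p = 0.0255) in the authors' deposited table.

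All 4 lay far from wildtype marks, the nearest H3K4me3 domain being 9689 bp away at Cfap44 and 42153 bp or more at the others. The Trappc9 event lay 632 bp from a ZBTB11 event, just beyond the limit of the rule, and 232 bp from a wildtype SETD1A event. At the others ZBTB11 lay 44047 bp or more away and SETD1A 94360 bp or more. At Trappc9 the knockout H3K4me3 domain had 430 reads in Zbtb11KO, 2106 in Zfp131KO and 4610 in double knockout cells, not scaled for depth. The Gm35105 event lies 4 bases after the start in the window printed above. These sites had more rpm in every knockout list than in wildtype, but only Zbtb11KO has a test. At Cfap44 the double knockout, at 1.06 rpm, was close to wildtype at 0.945. Whether the higher values follow the knockouts or the lines cannot be told apart. Of 60923 wildtype events, 15 others were called higher in the authors' deposited table.

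Of the 151 events with H3K4me3 in all 3 knockouts, 4 were called higher in the authors' deposited table and 30 lower. Of all 8348 unmarked events, 4 were called higher and 2969 (35.6%) lower. The median log2 fold change in the authors' deposited table was -0.89 at the 151 and -1.35 at all unmarked events, so the fall was smaller at the 151. Events with a knockout mark thus included calls in both directions. At chr8:57505892, 77 bp from the start of 2500002B13Rik, both single knockouts had H3K27ac within 500 bp, NELF had 2.50 rpm in Zbtb11KO and 6.08 in wildtype and was not listed in the other knockouts, and the authors' deposited table gave -1.49 (SE 0.38, DESeq2 adjusted p = 0.00133). In Myo1f, a myosin gene, at chr17:33599735 the H3K4me3 domain within 500 bp had 25 reads in Zbtb11KO, 73 in Zfp131KO and 815 in double knockout cells. NELF there had 3.70 rpm in Zbtb11KO and 4.60 in wildtype, a difference that did not pass the test (DESeq2 adjusted p = 0.454 in the authors' deposited table). Near 2810013P06Rik (chr8:123044977), 1002 bp from wildtype H3K4me3, the domain had 20 reads in Zbtb11KO, 25 in Zfp131KO and 9821 in double knockout cells. NELF there, with 2.19 rpm in wildtype, was listed in no knockout and was lower in the authors' deposited table with a log2 fold change of -1.23 (SE 0.45, DESeq2 adjusted p = 0.0185). At Myog, the gene of the muscle factor myogenin, at chr1:134290358, NELF had 1.17 rpm in Zbtb11KO and 2.22 in wildtype, which did not pass the test (DESeq2 adjusted p = 0.150 in the authors' deposited table).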

How the data were processed

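Reads were aligned to mm10, with Bowtie 1.0.1, bedtools and DESeq2 1.28.1 named, per the submitters' processing notes. The event lists give, per the file headers (MultiGPS output), a signal of reads per event pooled over replicates without depth scaling, a log2 fold over a control library of 45.3 M reads, and as a score the log2 p-value. The domain lists give, per the file headers (DomainFinder), the count of reads in each domain of pooled replicates with its p-value. The authors' deposited DESeq2 tables give for each region its mean signal, log2 fold change, Wald score and p-values; their scaling is not given in the sources used here. The deposited NELF tables named for the single knockouts were identical and held the Zbtb11KO regions, so NELF in Zfp131KO rests on its list. The deposited SIN3A and CHD4 lists of Zfp131KO were identical too, and SIN3A in Zfp131KO was not used.

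Distances ran from the event point to the nearest point or domain edge (Python 3.11.15, pandas 2.3.3, numpy 2.4.6, scipy 1.17.1), with code tested on simulated data. An event took the region of a table over it, or within 500 bp for CHD4 and H3K27me3. The unit rpm divides reads by the header totals. Genes (49997), types and 32851 starts came from RefSeq GRCm38.p6, and the start table lacks chromosome 18. The files give no values per library, so the planned tests between shares were not possible; shares carry Wilson 95% intervals for counting error. The members and gene lists were chosen with earlier results of these data known.

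The rule for named events took the 10 with most wildtype reads, up to 10 in all 3 knockout lists, up to 5 called lower and 5 higher among regions of at least median signal, up to 4 per gene list, 3 on each side of the 1 kb limit (1 of these is not reported here), and up to 5 with a knockout mark. Events at Cfap44, Rnu5g, Myo1f, 2810013P06Rik, Myog, Gm30734, Fkbp2 and the host genes were chosen after their values were seen. Alternatives varied the windows, polymerase threshold, read minimum, significance and adjusted p.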

Additional observations from a re-analysis of the deposited data

How the results depend on the processing

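No paired analysis was possible because no file gives a value per library, and leaving out a replicate was not run for the same reason. The count of unmarked events was within 1.5 times of 8348 with domains within 500 bp or 2 kb or HA events within 1 kb, and fell to 5443 when domains of any genotype were excluded. The share with polymerase was 18.4% for a domain over the event, 42.2% within 1 kb, 34.3% for domains with p under 0.001, 36.8% with no mark within 2 kb and 34.7% with no mark of any genotype. The share listed was 1.93% in Zbtb11KO within 250 bp. With no mark of any genotype it was 1.41% for Zbtb11KO, 1.01% for Zfp131KO and 0.423% for the double knockout, and among the 478 unmarked events in the more significant part of the wildtype list 16.3%, 13.2% and 3.97%. Wider gene bounds by 1 kb gave 66.3% inside genes. Unmarked events called lower numbered 1048 (12.6%) at an adjusted p under 0.01, where 22.9% of all regions were, and 34 (0.407%) when centred on the median of all regions, where 0.259% were. Leaving out the snRNA neighbours, an alternative chosen after seeing the data, kept the shares listed within their intervals, as did the remaining settings for these shares. The cause of these shifts was not tested. With a median of 60.9 reads, absence from a list does not show absence of binding.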
